A study of Mus musculus with 2 samples.

Results

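The genes described here are 10 genes of the amino acid response that runs through the transcription factor ATF4. They are *Atf4*, *Atf5*, *Ddit3*, *Trib3*, *Sesn2*, *Chac1*, *Ddit4*, *Asns*, *Psat1* and *Phgdh*, out of 37018 gene names on the array. A probe was taken as theirs when the accession the scanner files give for it mapped to 1 of these symbols. That gave 13 probes, each of them well above background for both dyes on either array and none saturated, so all 10 genes were tested. The question was whether loss of AIMP3, a scaffold protein of the multi-aminoacyl-tRNA synthetase complex, came with more mRNA of the amino acid synthesis genes or of the stress factors alone.

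Mouse embryonic stem cells (mESCs) were *AIMP3f/f;cre-ERT2*, that is, homozygous for a loxP-flanked *AIMP3* allele and carrying a Cre recombinase that tamoxifen switches on. The clones were derived from blastocysts. The AIMP3-depleted group was treated with 2 μM tamoxifen (4-OHT in the methods) for 4 days in 2 replicates, and the control group received ethanol for the same time. Floxed alleles, Cre-ERT2, LIF and a medium supplemented with nonessential amino acids were common to both groups, so tamoxifen itself and Cre activity cannot be told apart from the loss of AIMP3. According to the labels the cells were generally kept on feeder layers of embryonic fibroblasts, and the methods name fibroblast-conditioned medium for incubation with drugs. RNA of each AIMP3-depleted replicate carried Cy5 and had an array of its own. The Cy3 channel of either array held 1 pool of RNA from 2 control cultures, so the control was 1 sample and its spread between cultures is not in the test. The dyes were not swapped, so a difference between the dyes at a gene cannot be told apart from an effect of treatment. Nothing in the labels says that the replicates were separate cultures, and the p-values measure only the spread between these arrays.

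ATF4 is a transcription factor whose translation goes up when eIF2α is phosphorylated, for example by the kinase GCN2 when uncharged tRNA accumulates. This pathway is called the integrated stress response. ATF4 then turns on genes for amino acid synthesis, amino acid transport and tRNA charging, together with further transcription factors and stress effectors. Because ATF4 is controlled largely by translation, its mRNA is not a measure of its protein, and the arrays measured mRNA only. Embryonic stem cells are known to make and use serine, glycine and one-carbon units at a high rate.

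Values are log2 ratios of AIMP3-depleted over control after background correction and loess normalization, so 1 is a doubling and 0 is no difference. A gene was called up or down when the mean of both arrays passed 1.5-fold (0.585 on the log2 scale) with an unadjusted p under 0.05 by limma, the threshold of the study. Adjusted p-values below are from limma with Benjamini-Hochberg adjustment over all 24021 tested genes. The median SD between the arrays over all tested genes was 0.048, and the median log2 ratio was 0.016. *Eef1e1*, the gene of AIMP3, had log2 ratios of -0.90 and -0.90, a 1.87-fold fall (adjusted p = 4.78e-05). Intensities of different probes are not levels that can be set against each other.

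To show what the promoters of the members hold, the 250 bases upstream of each RefSeq start site were searched on both strands. RefSeq lists 12 promoters for the 10 genes (GRCm38.p6). ATF4 is known to bind, with a C/EBP protein, a composite element whose core is TGATGNAA (TTNCATCA on the other strand). This core was present in 2 of the 12 promoters, those of *Chac1* and *Asns*, and in 3.45% of all 32851 promoters in the table. A second pattern, TGNNGCAAT (ATTGCNNCA on the other strand), was chosen after the sequences were seen. It was present in 3 of the 12 promoters, those of *Chac1*, *Trib3* and *Psat1*, and in 1.79% of all promoters. The ER stress element, searched as its full consensus, was present in 0 of the 12 and in 0.113% of all promoters. The 4 stretches with a match are printed in the direction of the gene, with the matches in capitals.
Chac1, chr2:119350992-119351076, plus strand, with TGNNGCAAT first and the core on the other strand second: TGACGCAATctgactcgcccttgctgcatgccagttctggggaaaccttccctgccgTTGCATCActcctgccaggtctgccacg
Trib3, chr2:152344065-152344113, minus strand, with TGNNGCAAT: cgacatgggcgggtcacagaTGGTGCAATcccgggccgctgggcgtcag
Asns, chr6:7693210-7693252, minus strand, with the core: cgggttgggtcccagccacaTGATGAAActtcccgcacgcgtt
Psat1, chr19:15925167-15925215, minus strand, with TGNNGCAAT: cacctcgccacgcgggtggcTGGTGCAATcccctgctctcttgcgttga
In *Asns* the match ended 16 bases before the start site, in *Trib3* 25, in *Psat1* 128 and in *Chac1* 242 and 186. A match is a description of letters and not evidence of binding. The log2 ratios of the 4 genes were not of 1 sign: they were 0.37 for *Trib3*, 0.05 for *Chac1*, -0.26 for *Asns* and -0.35 for *Psat1*.

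In AIMP3-depleted mESCs, 2 of the 10 genes, *Atf5* and *Ddit3*, rose past the threshold, and 0 fell past it. Over all tested genes, 5.53% were called up and 0.791% down, 6.32% in all. With an adjusted p under 0.05 at any fold, 5 members were higher (*Atf5*, *Ddit3*, *Atf4*, *Trib3* and *Sesn2*) and 3 were lower (*Phgdh*, *Asns* and *Psat1*). By that rule 30.6% of all tested genes were higher and 23.7% lower, 54.3% in all, so passing this rule was common on these arrays. The lower calls depended on the normalization: 1 member (*Phgdh*) was lower with the authors' table, and 0 were lower and 6 higher with median centring, where 54.5% of all tested genes were higher and 8.77% lower. The 3 genes of amino acid synthesis were thus not among the genes that rose. RNA came from whole cultures, and fewer cells of a type and less RNA per cell cannot be told apart.

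The transcription factors were higher on both arrays. *Atf5* encodes a bZIP factor that is, like ATF4, translated more when eIF2α is phosphorylated. Its normalized intensity was 8465 in AIMP3-depleted cells against 4010 in the control pool for replicate 1, and 7973 against 3527 for replicate 2. Both AIMP3-depleted values lay above both control readings, which are of 1 pool and hold no spread between cultures. The log2 ratios were 1.08 and 1.18, a 2.18-fold rise (mean 1.13 ± 0.070, SD, n = 2; adjusted p = 3.68e-05 by limma), and 0.729% of tested genes had a larger ratio. *Ddit3* encodes CHOP, a bZIP factor that ATF4 induces. Its intensity was 1536 against 812 and 1364 against 755. The log2 ratios were 0.92 and 0.85, a 1.85-fold rise (mean 0.89 ± 0.047, SD, n = 2; adjusted p = 5.25e-05 by limma).

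*Atf4* itself read 97676 against 75359 and 106314 against 77358. Its log2 ratios of 0.37 and 0.46 gave a 1.33-fold difference (adjusted p = 0.000669 by limma), which reached the fold threshold only with median centring (0.88). A second, dimmer probe for *Atf4* read 2195 against 2003 and 2092 against 1949. Its ratios were 0.13 and 0.10 (adjusted p = 0.0784 by limma over all probes), so the probes shared a sign but differed in size by more than the spread between arrays.

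The stress effectors did not move together. *Trib3* encodes a pseudokinase that ATF4 and CHOP induce and that restrains both AKT and ATF4. It read 11283 against 8502 and 10805 against 8554, with log2 ratios of 0.41 and 0.34 (1.29-fold, adjusted p = 0.000954 by limma). *Sesn2* encodes Sestrin 2, a leucine-binding inhibitor of mTORC1 signalling that is also a known p53 target. It read 8510 against 6792 and 7859 against 6329, with log2 ratios of 0.33 and 0.31 (1.25-fold, adjusted p = 0.00145 by limma). Both genes were higher on both arrays and neither passed the fold threshold. With median centring *Trib3* was called up at 0.63 and *Sesn2* was at 0.56.

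*Chac1*, which encodes an enzyme that breaks down glutathione and is a known target of ATF4, gave 5339 against 5155 and 5164 against 4965. Its log2 ratios were 0.05 and 0.06 (adjusted p = 0.336 by limma), with a 95% confidence interval of the mean from -0.05 to 0.16. With median centring it was at 0.28 (adjusted p = 0.000134 by limma). The AIMP3-depleted and control values were close on both arrays, and the AIMP3-depleted value of replicate 2 was only just above the higher control value.

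*Ddit4* encodes REDD1, an inhibitor of mTORC1 that is induced by ATF4 and by low oxygen. It was the member on which the arrays disagreed. The array of replicate 1 read 26887 against 26581, a log2 ratio of 0.02, and the array of replicate 2 read 16631 against 25288, a log2 ratio of -0.60. The mean of -0.29 ± 0.44 (SD, n = 2) was not called (adjusted p = 0.102 by limma), and its 95% confidence interval ran from -0.61 to 0.02. Only 15 of all tested genes, or 0.0624%, differed as much between the arrays. The channels were then compared one by one in the scanner software's own processed signals. The control pool, which was the same RNA on both arrays, differed by -0.06 on the log2 scale between the array of replicate 1 and that of replicate 2, and the AIMP3-depleted channel by 0.62. Over 16419 bright probes the SD of this difference was 0.084 for the control channel and 0.10 for the AIMP3-depleted channel. The disagreement thus lay in the AIMP3-depleted channel, and its cause was not tested. With 1 probe and 1 spot per array, *Ddit4* is left here as 1 unchanged and 1 lower reading.

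**Figure D1:**
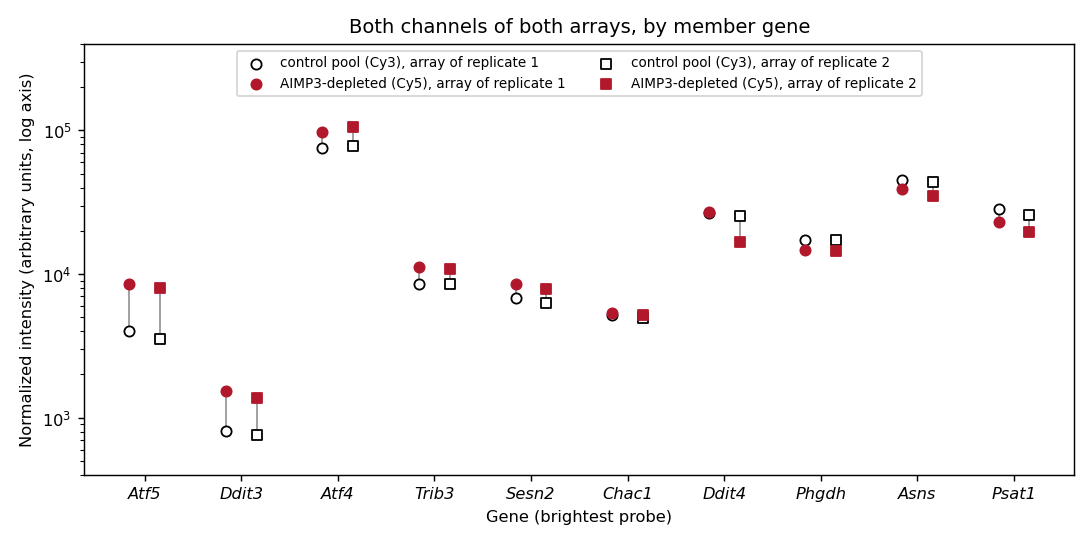
Normalized intensity (log axis, arbitrary units) of the brightest probe of each member in the control pool (open, Cy3) and in AIMP3-depleted cells (filled, Cy5), with circles for the array of replicate 1 and squares for that of replicate 2. *Atf5* and *Ddit3* show the widest gaps upward, the 3 synthesis genes at the right lie below their controls after loess (not so for *Asns* and *Phgdh* after median centring), and *Ddit4* drops on the array of replicate 2 alone.

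With loess, the amino acid synthesis genes were lower on both arrays, a direction that median centring turned for *Asns* and *Phgdh*. *Asns* encodes asparagine synthetase, a well known target of ATF4 under amino acid shortage. It read 39099 against 45002 and 34721 against 43548, with log2 ratios of -0.20 and -0.33 (1.20-fold lower, adjusted p = 0.00532 by limma). *Psat1* encodes phosphoserine aminotransferase of the serine pathway. It read 22904 against 28358 and 19602 against 25625, with log2 ratios of -0.31 and -0.39 (1.27-fold lower, adjusted p = 0.00131 by limma). *Phgdh* encodes phosphoglycerate dehydrogenase, which opens the serine pathway. It read 14639 against 17309 and 14423 against 17189, with log2 ratios of -0.24 and -0.25 (1.19-fold lower, adjusted p = 0.00402 by limma).

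All 6 values of these 3 genes lay between -0.39 and -0.20, and none passed the fold threshold. The dimmer second probe for *Psat1* gave -0.19 and -0.40. The second probe for *Phgdh* gave -0.11 and -0.11 (adjusted p = 0.0905 by limma over all probes), less than the first. Relative to all tested genes, *Psat1* lay above 5.66% of them, *Asns* above 10.5% and *Phgdh* above 11.8%. Centring each array on its median in place of loess put the median of all tested genes at 0.18, *Asns* at 0.13 and *Phgdh* at 0.05, and all 3 synthesis genes still lay below that median.

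By role, the median log2 ratio was 0.89 for the 3 transcription factors, 0.19 for the 4 stress effectors and -0.26 for the 3 synthesis genes. With median centring they were 1.08, 0.42 and 0.05. For replicate 1 these medians were 0.92, 0.19 and -0.24, and for replicate 2 they were 0.85, 0.18 and -0.33. The gap between transcription factors and synthesis genes was 1.15 from the means over arrays, 1.16 for replicate 1 and 1.18 for replicate 2. These medians are descriptions of a few chosen genes and were not tested.

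**Figure D2:**
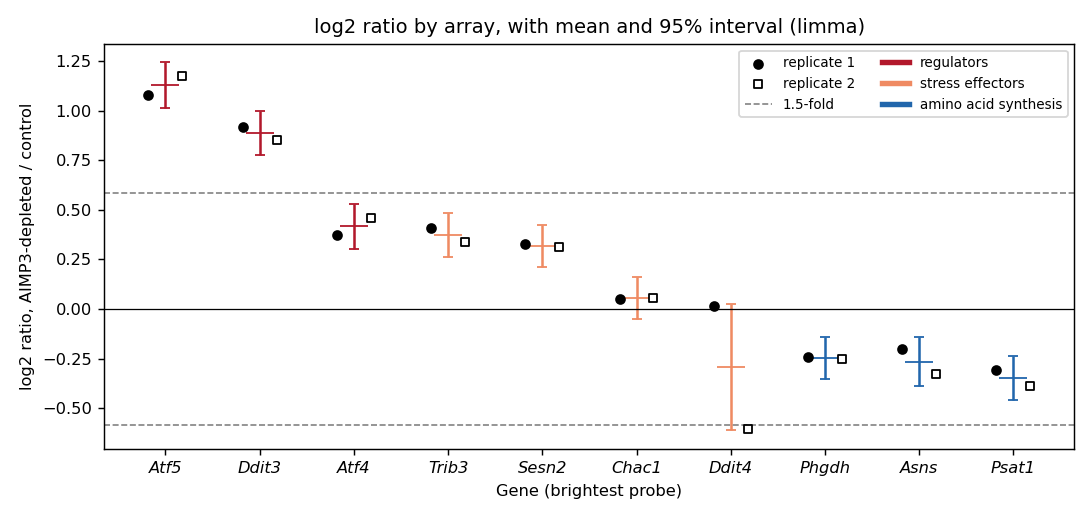
log2 ratio of AIMP3-depleted over control for each member on the array of replicate 1 (filled circles) and replicate 2 (open squares), with the mean (bar) and its 95% confidence interval from limma, coloured by role, and the 1.5-fold threshold dashed. *Atf5* at 1.13 and *Ddit3* at 0.89 lie above the threshold, and the interval of *Ddit4* reaches from -0.61 to 0.02.

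**Figure D3:**
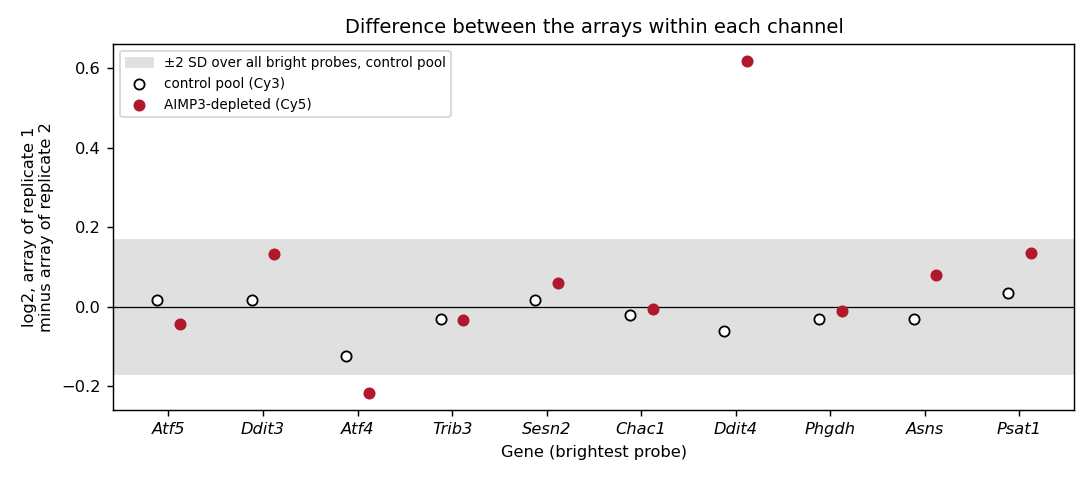
Difference in log2 signal of the brightest probe of each member between the array of replicate 1 and that of replicate 2, within the control channel (open) and within the AIMP3-depleted channel (filled), from the scanner software's own processed signals, with ±2 SD of the control channel over bright probes shaded. Of these probes *Ddit4*, at 0.62 in the AIMP3-depleted channel, lies far outside the band and *Atf4*, at -0.22, just below it, and the second *Psat1* probe, which is not drawn, was at 0.23.

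Further genes of the pathway were taken from lists by function. Over 8 lists, 94 of 96 genes were tested, and 6 were called up and 1 down (12 and 0 with median centring, 5 and 3 with the processed signals). The shares over all tested genes were 5.53% up and 0.791% down, 11.8% and 0.271% with median centring, and 8.08% and 3.21% with the processed signals. At an adjusted p under 0.05, the rule of the counts of higher and lower genes given below, they were 30.6% higher and 23.7% lower.

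With loess, all 9 serine, glycine and one-carbon enzymes had a negative mean, as did 11359 of all 24021 tested genes. Their median was -0.20, whereas median centring gave a median of 0.03 (0.18 over all tested genes). With loess, 6 of the 9 were lower with an adjusted p under 0.05, against 23.7% of all tested genes. *Mthfd1l*, the mitochondrial formyl-tetrahydrofolate synthetase, was the 1 gene called down, at -0.56 and -0.63 (1.51-fold, adjusted p = 0.000175 by limma). It lay just past the threshold and lost the call in 3 of the 10 alternatives that give a test, at -0.35 with median centring. The least changed was *Aldh1l2*, which uses formyl-tetrahydrofolate in mitochondria, at -0.06. Among enzymes that are textbook targets of ATF4, named after their values were seen, *Psph* was at -0.06, *Mthfd2* at -0.17 and *Shmt2* at -0.20. The dimmer second probe for *Psph* had a mean of -0.45.

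Of the other amino acid enzymes, 12 of 13 were tested (*Pycr1* had no probe by this rule), and none was called. Their median was -0.12 with loess and 0.09 with median centring. With loess 10 of the 12 means were negative, beside 11359 of all 24021 tested genes. The highest was *Glul*, glutamine synthetase, at 0.25 (adjusted p = 0.00449 by limma), and the lowest was *Gpt2*, a mitochondrial alanine aminotransferase, at -0.41 (adjusted p = 0.00089 by limma). Both lists of enzymes together held 21 tested genes, of which 1 had an adjusted p under 0.05 with a higher value and 11 with a lower one, beside 30.6% and 23.7% of all tested genes.

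Of 12 amino acid transporters, 11 were tested, since *Slc7a11* was not well above background on both arrays, and none was called (2 up with median centring). The median was -0.04 with loess and 0.31 with median centring, and with loess 4 genes were higher and 4 lower at an adjusted p under 0.05, beside 30.6% and 23.7% of all tested genes. *Slc1a4*, a carrier of serine, alanine and other small neutral amino acids, was highest at 0.49, and *Slc7a5*, the large neutral amino acid carrier LAT1, was lowest at -0.38.

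Of the 13 tRNA synthetase genes that ATF4 is known to drive, 10 had a negative mean with loess, beside 11359 of all 24021 tested genes. Their median was -0.19 with loess and 0.11 with median centring. At an adjusted p under 0.05 by limma, 1 was higher and 8 were lower with loess, beside 30.6% and 23.7% of all tested genes. *Tars*, the threonyl-tRNA synthetase, was lowest at -0.42 (adjusted p = 0.000539 by limma). *Yars*, the tyrosyl-tRNA synthetase, was the only gene called up, at 0.62 and 0.95 (adjusted p = 0.000441 by limma), a call that the methods' t-test did not make. Its probe was dim, at 432 against 281 and 453 against 235, and the arrays differed more there than at most genes.

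With loess, the other genes of the integrated stress response held most of the calls in these lists. Of 15 genes, 4 were called up and 0 down, with a median of 0.12 (0.36 with median centring, where 5 were called up). With the processed signals 2 were called up and 2 down, and the authors' table gave 4 up and 1 down. *Atf3*, a bZIP factor that represses and feeds back on this response, was highest. It read 1510 against 614 and 1559 against 656, with log2 ratios of 1.30 and 1.25 (2.42-fold, adjusted p = 3.29e-05 by limma). *Cebpb*, which encodes C/EBPβ, a dimer partner of ATF4 and CHOP, gave 0.86 and 0.89 (1.83-fold, adjusted p = 5.06e-05 by limma). *Sqstm1*, the autophagy receptor p62, gave 0.62 and 0.64, and *Ppp1r15a*, which encodes GADD34, the eIF2α phosphatase subunit that closes the response, gave 0.57 and 0.60. The last pair lay near the threshold and fell short of it with the scanner software's own processed signals, at 0.58 and 0.56. *Stc2*, a secreted glycoprotein and ATF4 target, was lowest at -0.55 (adjusted p = 0.000191 by limma).

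**Figure D4:**
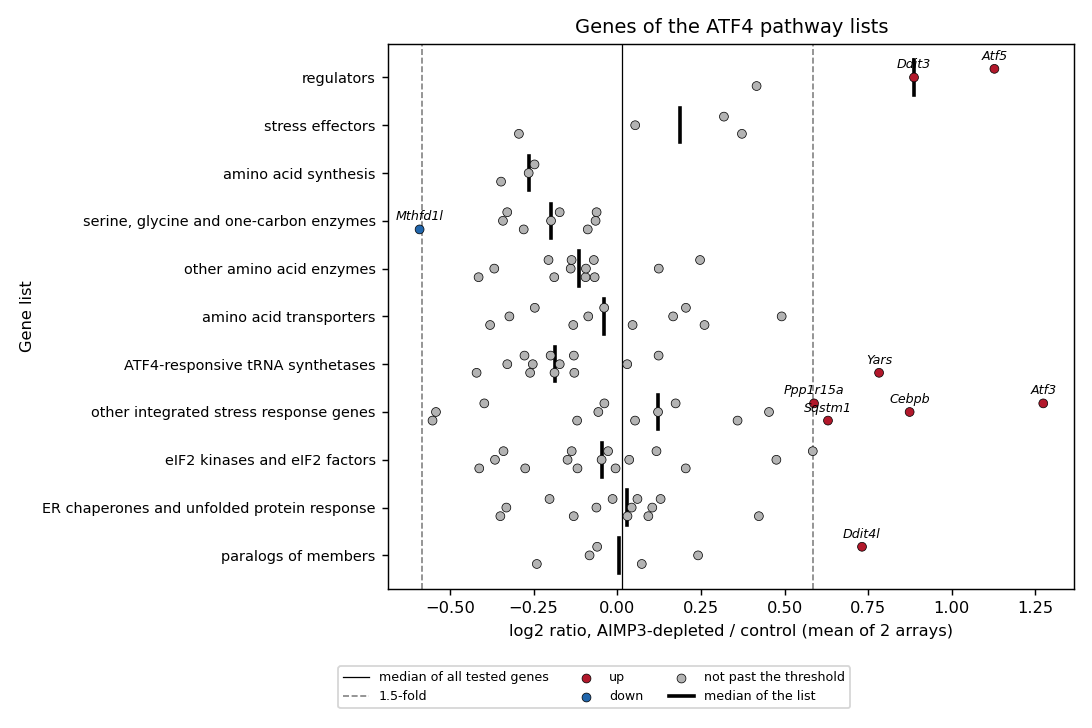
Mean log2 ratio of AIMP3-depleted over control for each tested gene of the members' roles and of the pathway lists, with genes called up in red, called down in blue and others in grey, a thick bar at the median of each list and the 1.5-fold threshold dashed. The 3 synthesis members and all 9 serine, glycine and one-carbon enzymes lie below 0 after loess (median centring turns the median of both), while *Atf3* at 1.27 and *Cebpb* at 0.87 lie beside *Atf5* and *Ddit3*.

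Upstream of ATF4, none of the 15 genes for eIF2 kinases and eIF2 factors was called (2 up with median centring, 1 up with the processed signals and 1 up with the authors' table). Their median was -0.05 with loess and 0.27 with median centring, and with loess 3 were higher and 6 lower at an adjusted p under 0.05 by limma, beside 30.6% and 23.7% of all tested genes. Of the 4 kinases that phosphorylate eIF2α, all named after their values were seen, *Eif2ak2* (PKR) was highest at 0.58, just short of the threshold. *Eif2ak1* (HRI) was at 0.20, *Eif2ak3* (PERK) at 0.12 and *Eif2ak4* (GCN2) at -0.14. The lowest gene was *Eif2s3x*, the X-linked γ subunit of eIF2, at -0.41. The activity of these kinases lies in phosphorylation, which the arrays did not measure.

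The ER chaperones and other genes of the unfolded protein response, which share PERK with this pathway, had a median of 0.03 over 13 genes with 0 called (0.26 with median centring, where 1 was called up). *Hspa5*, the ER chaperone BiP, was highest at 0.42 (adjusted p = 0.000548 by limma), and it was the only gene of the list that was higher with an adjusted p under 0.05. *Sdf2l1* was lowest at -0.35, and 4 genes of the list were lower with an adjusted p under 0.05, beside 23.7% of all tested genes.

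Relatives of the members were read to see whether a family moved as one. *Ddit4l*, the paralog of *Ddit4*, was called up at 0.65 and 0.81 (1.66-fold, adjusted p = 0.000152 by limma), a call that the methods' t-test did not make. *Ddit4* itself was not called. *Trib1* was at 0.24 and *Trib2* at -0.06 beside *Trib3* at 0.37. *Sesn1*, at -0.08, and *Sesn3*, at -0.24 (adjusted p = 0.00456 by limma), were read beside *Sesn2* at 0.32. *Chac2* was at 0.07, close to *Chac1*. The differences between relatives were not tested.

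Markers of other cell types moved on the same arrays, on which 5.53% of all tested genes were called up and 0.791% down. All 10 primitive endoderm markers were called up (median 1.16), with summed intensities of 306032 to 317072 in AIMP3-depleted cells against 132838 to 142273 in the control pool. Of 10 fibroblast markers, 9 were tested (*Lum* was not well above background) and 7 were called up (median 0.81), with sums of 133024 to 137172 against 92847 to 93903. The 10 mESC markers were all well above background, 1 was called down (*Tdgf1*, at -0.59) and 0 up, and their median was -0.22. With an adjusted p under 0.05 by limma, 3 were higher and 6 lower, beside 30.6% and 23.7% of all tested genes, and their summed intensity was 296237 to 302558 in AIMP3-depleted cells against 263236 to 273503 in the control pool. The bright *Dppa5a* probe decided the direction of that sum, and the other 9 markers summed to 105566 to 110130 against 132139 to 133132. The other sums also rest mostly on 1 bright probe each, *Sparc* (205557 and 218730 in AIMP3-depleted cells) for endoderm and *Fn1* (99933 and 97033) for fibroblasts. The endoderm and fibroblast markers were higher on the arrays on which *Atf5*, *Ddit3*, *Atf3* and *Cebpb* rose, and their part in the results was not tested.

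The processing that touches these results most was the dye normalization. With median centring, 4 members were called up against 11.8% of all tested genes. The median over the brightest of 3 equal bins of genes, which held 9 of the 10 members, was then 0.28, against 0.01 with loess. *Atf5* and *Ddit3* were called in all 11 settings that give a test, whereas *Chac1* changed sign only at a value of -0.00088 with the processed signals.

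**Figure D5:**
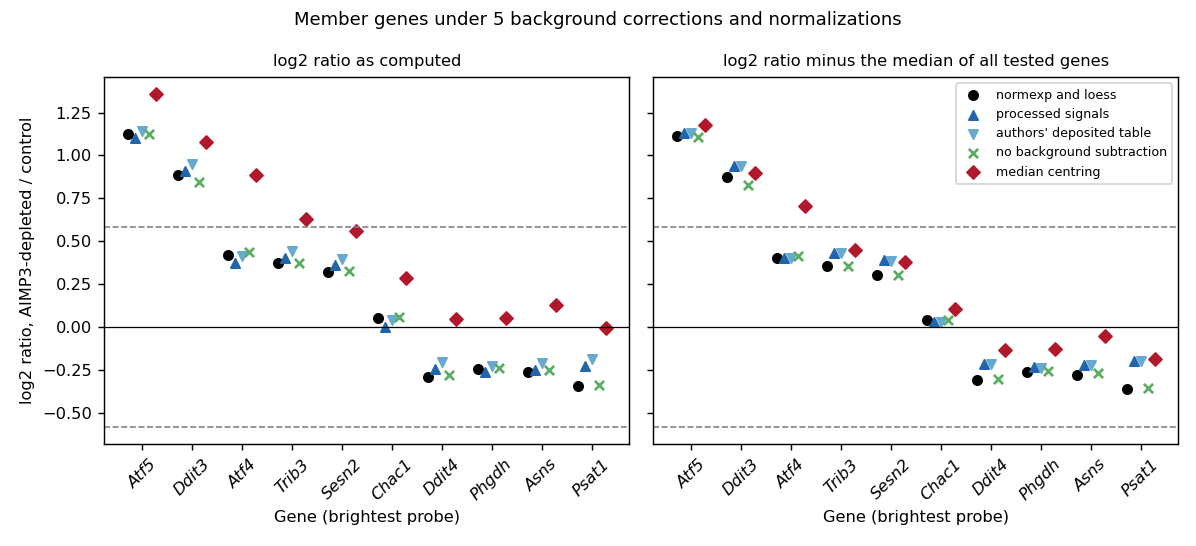
log2 ratio of each member under 5 background corrections and normalizations, as computed (left) and after subtracting the median of all tested genes under the same setting (right), with the 1.5-fold threshold dashed. Median centring (red diamonds) lifts *Asns*, *Phgdh* and *Ddit4* above 0 at the left, and at the right the 3 synthesis genes lie below 0 in each of the 5.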

How the data were processed

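2-colour arrays of AIMP3-depleted mESCs against pooled control RNA were analysed. The intensities of each spot and its local background were deposited as made by Agilent's Feature Extraction (the header gives 11.5.1.1, which is not what the methods state) and were not normalized. The processed signals and the log10 ratio in the deposited files were background-subtracted and dye-normalized by that software. The authors' deposited value table, made with GeneSpring, holds log2 ratios. They differed from the log2 ratio of the processed signals by a constant of 0.04 on each array, with 99.8% of probes within 0.01 of it, and their medians were 0.091 and 0.11. All its columns of per-sample values were used, and 0 went unused. Accessions in the files were turned into names through RefSeq genes on GRCm38.p6, whose promoter sequences were also taken. The design of the array is on mm9, so probe positions are not printed.

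Median signals were used, since the files hold no mean signal. Background was corrected with limma's normexp (offset 50), spots with an outlier flag (215 and 227) were dropped, each array was normalized by loess with control spots at weight 0, and spots of a probe were averaged. A probe was tested when, on each of the arrays, at least 1 dye was well above background (33010 of 55681 probes), and the brightest probe stood for a gene. The mean log2 ratio was tested against 0 with lmFit and eBayes (1 residual and 5.28 prior degrees of freedom). The steps were tested on simulated data. Signal was 2.68 to 3.31 times background in the median, and precision is limited by there being 2 arrays.

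The members and gene lists were chosen with earlier results of these data known. The rule names all members with their probes, *Eef1e1*, the genes of each list past the threshold, the highest and lowest otherwise, and the paralogs. Alternatives were other background corrections, normalizations, filters, probe rules, tests, priors and thresholds, and each replicate left out. The software was limma 3.58.1 in R 4.3.3.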

Additional observations from a re-analysis of the deposited data

How the results depend on the processing

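*Atf5* and *Ddit3* were called up under every alternative that gives a test at 1.5-fold, and of the other 8 members only *Atf4* and *Trib3* gained a call in any of them. With median centring, *Atf4* (0.88) and *Trib3* (0.63) passed the threshold, *Asns* (0.13), *Phgdh* (0.0496) and *Ddit4* (0.043) turned positive, 4 members were up, and the medians were 0.42 for all members, 1.08 for the transcription factors, 0.42 for the stress effectors and 0.0496 for the synthesis genes, with 12 pathway genes up and 0 down and 11.8% of all tested genes up and 0.271% down. Calls that were up made up 87.5% of changed genes, 71.6% with the processed signals, 97.7% with median centring and 77.5% with the authors' table. With the processed signals *Chac1* was at -0.00088, the medians of all members and of the stress effectors were 0.18, 3 pathway genes were down, and 3.21% of all genes were down. Without background subtraction both medians were 0.19 and 0 pathway genes were down. With the authors' table both medians were 0.22, that of the transcription factors 0.95, 2 pathway genes were down, and 8.87% of all genes were up and 2.57% down. Without the filter 3.64% were up and 0.516% down, and with the mean of all probes the members' median was 0.16 and 0 pathway genes were down. The ordinary t-test of the ratios against 0 called 3.60% up (993 genes in all, 0 after Benjamini-Hochberg adjustment, where limma called 1518), and *Yars* and *Ddit4l* lost their calls. The methods name a Student's t-test between groups instead. At an adjusted p under 0.05 at any fold, 5 members were up and 3 down (30.6% and 23.7% of all genes). By that rule 6 and 0 members were called with median centring, 5 and 1 with the authors' table, 5 and 4 without background subtraction and 0 with the ordinary t-test, and 5 and 3 under the other alternatives. At 2-fold 1 member was up (1.17% and 0.0708%). With 1 replicate left out, members down ranged from 0 to 1 (*Ddit4*, from -0.60 without replicate 1 to 0.0165 without replicate 2), the synthesis median from -0.33 to -0.24 and pathway genes down from 0 to 2, with no test. Causes other than those built into an alternative were not tested. No paired analysis was possible because, beyond the pairing of the channels on each array that every ratio already holds, the 1 control pool has no replicate numbers to match. The arrays have 1 dye orientation, and signal over background limits the dim probes.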
